A study of Arabidopsis thaliana with 6 samples.

Results

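The class III homeodomain-leucine zipper (HD-ZIP III) and KANADI genes of *Arabidopsis thaliana* were followed at the base of the inflorescence stem. They comprise 5 HD-ZIP III genes, *REV* (AT5G60690), *PHB* (AT2G34710), *PHV* (AT1G30490), *ATHB-15* (AT1G52150) and *HB-8* (AT4G32880), and 4 KANADI genes, *KAN1* (AT5G16560), *KAN2* (AT1G32240), *KAN3* (AT4G17695) and *KAN4* (AT5G42630). They were taken by locus code as the 9 known members of both families, from 33602 genes in the read count table, and all 9 were among the 20296 genes with enough reads to be tested. RNA sequencing compared stems of the double mutant *smxl4 smxl5*, described in the study as defective in phloem, with wild-type stems, 3 libraries each. Every shoot, mutant or wild type, stood on a wild-type root joined by grafting in the seedling, so the root genotype was common to both groups. Each library pooled 1 cm fragments from the base of 3 stems that were 15 to 20 cm high. The labels name the genotype without alleles or ecotype, and *SMXL4* and *SMXL5* themselves were not lower in the mutant libraries (log2 fold changes 0.26 ± 0.13 and 0.02 ± 0.14, SE, neither called), so the counts do not check the genotype labels and directions are those of the libraries as labelled.

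HD-ZIP III proteins are transcription factors with a homeodomain, a leucine zipper and a lipid-binding START domain. They promote the upper (adaxial) side of leaves and, in vascular bundles, the inner, xylem side. KANADI proteins are transcription factors of the GARP class that promote the lower (abaxial) side of leaves and act against HD-ZIP III function in the outer, phloem side of bundles. Transcripts of HD-ZIP III genes are cleaved under the guidance of the microRNAs miR165 and miR166, which KANADI transcripts are not known to be.

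The sequence that sets the families apart in this respect is shown first. The 9 annotated *MIR165* and *MIR166* loci hold 2 mature sequences on their 3′ arms, 1 shared by 2 *MIR165* loci and 1 shared by 7 *MIR166* loci. They were read from the RefSeq TAIR10.1 genome at chr1:78932-78952 (minus strand) for miR165a and chr2:19176241-19176261 (plus strand) for miR166a. Capitals mark the seed, bases 2 to 8.
miR165a-3p: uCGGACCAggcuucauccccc
miR166a-3p: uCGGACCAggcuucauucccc
The seed is the same, and 1 base differs between them, C17U counted from the 5′ end of miR165a.

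Each of the 5 HD-ZIP III transcripts held a complementary stretch of 21 bases in its coding sequence, shown 5′ to 3′ as RNA with the bases that form Watson-Crick pairs in capitals, against miR166a for *ATHB-15* and against miR165a for the other 4.
REV site: cuGGGAUGAAGCCUGGUCCGg
PHB site: uuGGGAUGAAGCCUGGUCCGg
PHV site: uuGGGAUGAAGCCUGGUCCGg
ATHB-15 site: cuGGAAUGAAGCCUGGUCCGg
HB-8 site: cuGGGAUGAAGCCUGGUCCGg
These were 3 different sequences, with *REV* and *HB-8* sharing 1 and *PHB* and *PHV* another. In all 5 genes the facing microRNA bases 1, 20 and 21 formed no Watson-Crick pair, which left 18 such pairs. Base 1 faced a G as a G-U wobble, and such wobbles are counted as unpaired here and below. At base 17 the *ATHB-15* site had a Watson-Crick pair with miR166a and a mismatch with miR165a. The other 4 had a Watson-Crick pair there with miR165a and a G-U wobble with miR166a. In every gene an intron divides the site into 11 and 10 bases, between exons 5 and 6 in *HB-8* and exons 4 and 5 in the others. The divided sites lie at chr5:24398787-24398898 (*REV*, plus strand), chr2:14642530-14642666 (*PHB*), chr1:10799330-10799445 (*PHV*), chr1:19412976-19413085 (*ATHB-15*) and chr4:15866872-15866974 (*HB-8*), the last 4 on the minus strand.

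Among the spliced transcripts of 27558 protein-coding genes, 4 genes (0.0145%) had a stretch with at most 3 unpaired bases against miR165a, and all 4 were HD-ZIP III genes. Against miR166a it was *ATHB-15* alone. With at most 4 unpaired bases, 7 genes matched miR165a and 11 matched miR166a, and each set held all 5 HD-ZIP III genes. The best stretch in any KANADI transcript left at least 8 bases unpaired. These matches describe sequence only. The libraries were made from polyadenylated RNA and do not measure mature microRNAs.

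In the mutant libraries *PHB* and *REV* fell, by 29.8% and 21.7%, while *KAN3* and *KAN4* rose, by 60.4% and 48.9%. The other 5 members did not pass the test, an edgeR quasi-likelihood test adjusted over all genes at 0.05. So 4 of the 9 members were called, 44.4%, where 24.9% of all genes tested were called, 13.7% as lower and 11.2% as higher. Mutant and wild-type libraries were fully separated for 5 members, 55.6%, against 45.3% of all genes tested. A fragment with fewer cells of a type cannot be told apart from one with less RNA per cell in such bulk samples.

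**Figure D1:**
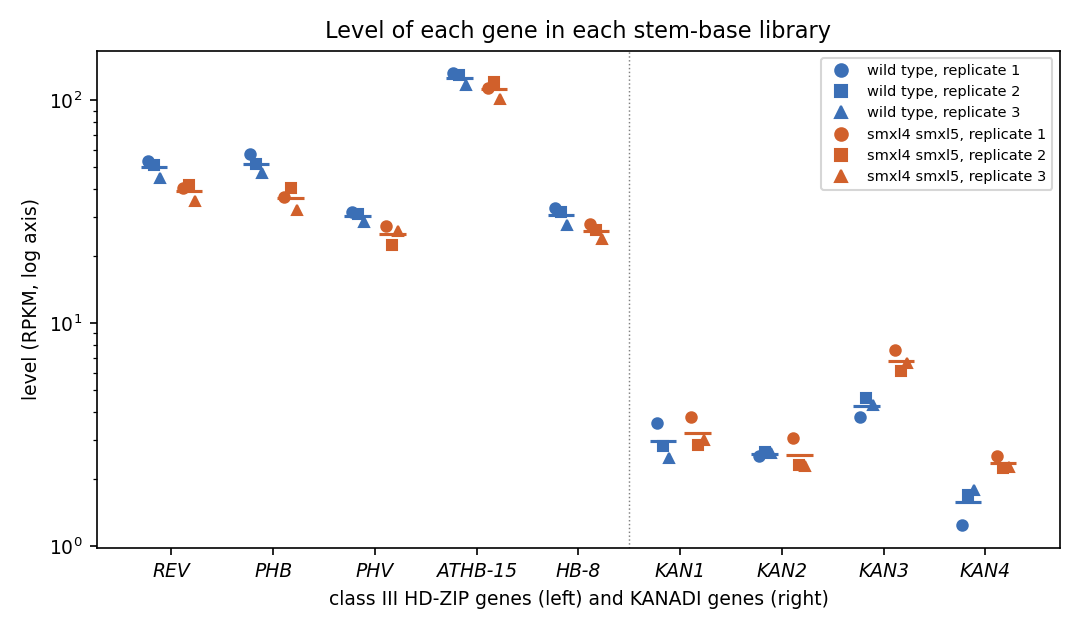
Level of each member in RPKM (reads scaled to exon length and library size, log axis) in every library. Points are single libraries, shapes give the replicate number, and horizontal bars are group means over 3 libraries. The HD-ZIP III genes lie between 22.5 and 132 RPKM and the KANADI genes between 1.24 and 7.57 RPKM, and the mutant libraries (orange) of *REV*, *PHB* and *PHV* lie below, and those of *KAN3* and *KAN4* above, all wild-type libraries (blue).

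*PHB*, which specifies adaxial identity in lateral organs and vascular tissue, gave 116, 128 and 102 CPM (counts divided by the scaled library total) in mutant replicates 1, 2 and 3 and 180, 163 and 148 CPM in wild type. Every mutant library lay below every wild-type library. The level fell by 0.51 ± 0.11 on the log2 scale (SE, n = 3 each; edgeR adjusted p = 0.0165). The call was lost when mutant replicate 1 or either of wild-type libraries 1 and 2 was left out (edgeR adjusted p = 0.0544, 0.0592 and 0.0593), with log2 fold changes of -0.51, -0.44 and -0.52.

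*REV*, needed for lateral meristems and interfascicular fibres of the stem, gave 144, 148 and 125 CPM in the mutant libraries and 190, 183 and 160 CPM in wild type. The groups did not overlap, and replicate 3 was the lowest of each group. The log2 fold change was -0.35 ± 0.10 (SE; edgeR adjusted p = 0.0396). It stayed between -0.28 and -0.43 when single libraries were left out. The call was lost without mutant replicate 1 or 3 or wild type replicate 1 or 2 (edgeR adjusted p = 0.0877, 0.0782, 0.126 and 0.133).

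*PHV*, the closest relative of *PHB*, gave 84.0, 69.4 and 79.8 CPM in the mutant libraries and 97.5, 95.1 and 88.1 CPM in wild type. The groups did not overlap, but the log2 fold change of -0.27 ± 0.09 did not pass (edgeR adjusted p = 0.0659; 95% interval -0.48 to -0.06). In DESeq2 it passed, with an adjusted p of 0.0404.

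*HB-8*, an early marker of procambium and a direct target of the auxin response factor MONOPTEROS, gave 88.0, 83.1 and 75.7 CPM against 104, 99.6 and 87.4 CPM. Its mutant replicate 1 lay just above wild type replicate 3, and the log2 fold change of -0.24 ± 0.09 did not pass (edgeR adjusted p = 0.100; 95% interval -0.46 to -0.02). Without wild type replicate 3 it was -0.32 and passed (edgeR adjusted p = 0.0422).

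*ATHB-15*, which acts in procambium and developing xylem and was the most abundant member, gave 413, 436 and 369 CPM in the mutant libraries and 479, 470 and 425 CPM in wild type. Mutant replicate 2 lay above wild type replicate 3. Its log2 fold change was -0.17 ± 0.09 (edgeR adjusted p = 0.209), and its 95% interval, from -0.39 to 0.05, corresponds to -23.9% to 3.26%.

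All 5 HD-ZIP III genes thus had a log2 fold change under 0, of which 2 were called, with a median of -0.27, where the median over all genes tested was 0.02. Levels between genes can be compared per length of exon. In wild type *ATHB-15* was highest at 126 ± 8.08 RPKM (SD, n = 3), above *PHB* at 52.0 ± 5.13 and *REV* at 50.05 ± 4.45 RPKM. *HB-8* at 30.7 ± 2.74 and *PHV* at 30.4 ± 1.59 RPKM followed. *PHB* and *REV* overlapped, as did *HB-8* and *PHV*, and every other step in the order separated all libraries. The mutant libraries had the same order except that *REV*, at 39.2 ± 3.51 RPKM, had a mean above that of *PHB*, at 36.5 ± 4.12 RPKM, again overlapping.

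As shares of the summed RPKM of the 5 genes, *PHB* made up 14.9%, 16.1% and 14.7% in mutant replicates 1, 2 and 3 and 18.6%, 17.5% and 17.7% in wild type. *REV* made up 16.4% ± 0.29 against 17.3% ± 0.27 (SD, n = 3 each), and *ATHB-15* 46.9% ± 0.88 against 43.7% ± 0.62. None of these 3 shares overlapped between the groups, while those of *PHV* and *HB-8* did. Shares add up to the whole, so a higher share of *ATHB-15* stands beside a level that was not higher, and no test was run on the shares.

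Among the KANADI genes, *KAN3* gave 10.6, 8.55 and 9.31 CPM in the mutant libraries and 5.30, 6.45 and 5.99 CPM in wild type. Every mutant library lay above every wild-type library. The means were 9.49 ± 1.03 and 5.91 ± 0.58 CPM (SD, n = 3 each), a log2 fold change of 0.68 ± 0.12 (SE; edgeR adjusted p = 0.00916). *KAN3* passed in each of the 11 other settings, including each library left out in turn, with log2 fold changes from 0.59 to 0.75 and adjusted p up to 0.0382. *KAN3* acts together with *KAN1* and *KAN2* in organ polarity.

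*KAN4*, also called *ATS* and known for the growth of the ovule's integuments, gave 4.13, 3.67 and 3.71 CPM in the mutant libraries and 2.02, 2.77 and 2.91 CPM in wild type. The groups did not overlap. It rests on 351 reads in the mutant libraries and 337 in wild type. Its log2 fold change of 0.57 ± 0.17 was close to the threshold (SE; edgeR adjusted p = 0.0459). The call was lost with any 1 library left out (log2 fold changes 0.43 to 0.66, edgeR adjusted p from 0.0505 without wild type replicate 3 to 0.134 without mutant replicate 1), and in DESeq2 (adjusted p = 0.0531).

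*KAN1*, the founding member of the family, gave 9.04, 6.78 and 7.15 CPM in the mutant libraries and 8.48, 6.74 and 5.91 CPM in wild type, which overlap. Its log2 fold change was 0.13 ± 0.17 (edgeR adjusted p = 0.601), with a 95% interval from -0.26 to 0.52. *KAN2*, which overlaps with *KAN1* in function, gave 7.81, 5.95 and 5.87 CPM against 6.52, 6.78 and 6.72 CPM, also overlapping. Its log2 fold change was -0.03 ± 0.13 (edgeR adjusted p = 0.903), with a 95% interval from -0.34 to 0.29. A rise as large as the 0.68 estimated for *KAN3* lies outside both intervals. The 95% interval of *KAN3* itself, 0.40 to 0.97, overlaps that of *KAN1* but not that of *KAN2*. A difference between the genes was not tested.

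The KANADI genes were far less abundant than the HD-ZIP III genes. In wild type *KAN3* led at 4.23 ± 0.41 RPKM (SD, n = 3), above *KAN1* at 2.95 ± 0.55 and *KAN2* at 2.60 ± 0.054 RPKM, which overlapped, and *KAN4* was lowest at 1.57 ± 0.29 RPKM. In the mutant libraries *KAN3* reached 6.78 ± 0.74 RPKM, again above the rest in every library, and *KAN4* reached 2.35 ± 0.16 RPKM and overlapped with *KAN2* at 2.55 ± 0.43 RPKM. *KAN3* made up 44.7%, 45.2% and 46.8% of the summed KANADI RPKM in mutant replicates 1, 2 and 3, and 34.1%, 39.2% and 38.4% in wild type. The share of *KAN2* was 17.1% ± 0.94 against 22.9% ± 0.51 (SD, n = 3 each), also without overlap. The shares of *KAN1* and *KAN4* overlapped between the groups. Exon length here joins all annotated transcripts of a gene, 2567 bases for *KAN2* and 1634 for *KAN4*. Their transcripts with the longest coding sequence have 1823 and 1312 bases. The order and shares of the KANADI genes depend on this choice.

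Summed over each family, HD-ZIP III genes gave 246, 252 and 219 RPKM in mutant replicates 1, 2 and 3 and 308, 296 and 266 RPKM in wild type. KANADI genes gave 16.9, 13.5 and 14.2 RPKM and 11.1, 11.8 and 11.2 RPKM. The ratio of HD-ZIP III to KANADI was 14.6, 18.6 and 15.4 in the mutant libraries and 27.7, 25.1 and 23.8 in wild type, with no overlap between the groups. This ratio is a description, since the members were chosen with earlier results known.

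**Figure D2:**
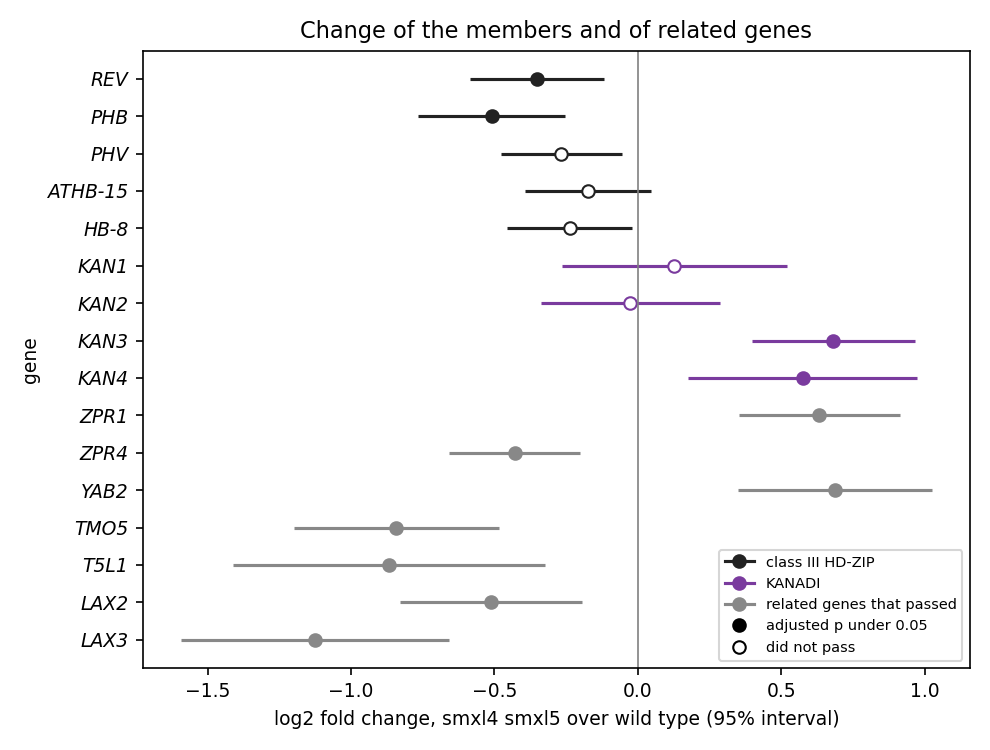
Log2 fold change of mutant over wild type for the 9 members and 7 related genes that passed the test, with 95% intervals from the fit over 3 libraries per group. Filled points passed an adjusted p of 0.05. The HD-ZIP III points lie between -0.51 and -0.17, and *KAN3* and *KAN4* lie at 0.68 and 0.57.

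The authors' deposited table, whose log2 fold changes have the sign of wild type over mutant, gives the same split. In that table *PHB* has 0.50, *REV* 0.35, *KAN3* -0.63 and *KAN4* -0.50, and adjusted p under 0.05 for 5 members, the 4 above and *PHV* (adjusted p = 0.0394 for *PHV* and 0.0498 for *KAN4* in the authors' deposited table).

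Levels of tissue markers were compared in the same libraries. All 8 phloem markers fell, and their summed level was 316 to 344 CPM in the mutant libraries and 629 to 690 CPM in wild type. Of 11 xylem markers 7 fell (2186 to 2717 against 3409 to 4196 CPM summed), of 6 cambium markers 4 fell (435 to 527 against 607 to 676 CPM), and all 5 chlorenchyma markers, genes of green cortex tissue, fell (8111 to 10430 against 13388 to 14797 CPM). As a percentage of the wild-type mean, these sums were 48.3% to 52.6% (phloem), 56.4% to 70.1% (xylem), 67.1% to 81.2% (cambium) and 58.2% to 74.9% (chlorenchyma) in the mutant libraries, where the HD-ZIP III sum was 75.9% to 87.4% and the KANADI sum 112% to 142%. Abundant genes weigh most in these sums. As mutant means, *CESA4*, *CESA7* and *CESA8* gave 850, 721 and 467 of 2408 CPM (xylem). *PXY* gave 353 of 488 CPM (cambium) and *CAB1* 6125 of 9284 CPM (chlorenchyma). *ATHB-15*, which was not called, gave 406 of the 820 CPM of the HD-ZIP III sum. Single markers varied: *ANT* of the cambium list fell by 47.6%, while the -15.3% of *LBD4* did not pass. Of 6 epidermis markers only *CER1*, a wax synthesis gene, was called, as lower. Their sum was 119, 103 and 200 CPM in mutant replicates 1, 2 and 3 and 207 to 276 CPM in wild type. Mutant replicate 3 was thus set apart from the other mutant libraries and lay closest to wild type. The part of tissue composition in the members' changes was not tested.

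**Figure D3:**
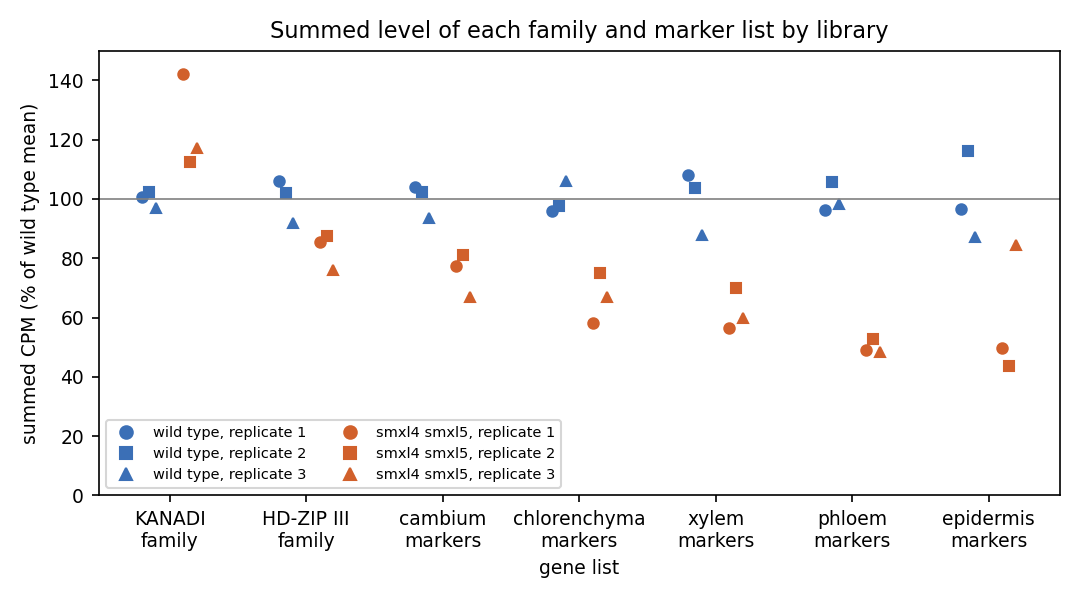
Summed CPM of the HD-ZIP III and KANADI families and of 5 marker lists in each library, as a percentage of the mean of the 3 wild-type libraries (grey line at 100%). Abundant genes weigh most in each sum. The KANADI sums of the mutant libraries lie at 112% to 142%, the HD-ZIP III sums at 75.9% to 87.4% and the phloem sums at 48.3% to 52.6%.

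Of 7 markers of shoot meristems and organ primordia, where both families are also active, 3 were tested and 1 rose. Their summed level was 158 to 193 CPM in the mutant libraries and 168 to 206 CPM in wild type, which overlap. Nearly all of this sum was *STM*, so it does not describe the other markers. *CLV3*, the stem cell peptide gene, was listed at 0 in every library, where 3 counts correspond to 0.0605 to 0.139 CPM, and *LFY* and *AG*, floral identity genes, had 3 counts each over all libraries. *WUS*, a gene of the meristem's organizing centre, was at 0.389, 0.697 and 0.222 CPM in the mutant libraries and 0.0298, 0.111 and 0.161 CPM in wild type. These do not overlap but were too low to be tested. *STM*, a homeobox gene of meristems that is also active in stems, was at 156, 160 and 191 CPM in the mutant libraries and 168, 186 and 205 CPM in wild type, which overlap. *PI*, a petal and stamen identity gene, rose from at most 0.327 CPM in wild type to 2.01, 1.44 and 0.693 CPM in mutant replicates 1, 2 and 3 (log2 fold change 3.14 ± 0.65, edgeR adjusted p = 0.0156). *CUC2*, a boundary gene, was at 0.269, 0.186 and 0.360 CPM against 0.149, 0.443 and 0.706 CPM, and did not pass (edgeR adjusted p = 0.391). The part of such tissue in the members' changes was not tested.

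Genes that act on HD-ZIP III products were measured beside them. Of 17 upstream regulators 8 were tested, 1 rose and 1 fell. *ZPR1* and *ZPR4* encode LITTLE ZIPPER proteins, which HD-ZIP III factors induce and which bind those factors and block their function. *ZPR1* gave 77.7, 80.8 and 70.6 CPM in the mutant libraries and 44.8, 44.3 and 58.5 CPM in wild type, and rose by 0.63 ± 0.12 on the log2 scale (edgeR adjusted p = 0.0110). *ZPR4* gave 7.57, 7.44 and 7.23 CPM against 9.82, 10.9 and 9.20 CPM, and fell by 0.43 ± 0.10 (edgeR adjusted p = 0.0197). *ZPR1* passed in each of the 11 other settings. *ZPR4* lost its call when mutant replicate 1 or either of wild-type libraries 1 and 2 was left out, with edgeR adjusted p of 0.0574, 0.0591 and 0.0886. The groups overlapped for the other LITTLE ZIPPER genes, *ZPR2* and *ZPR3*, with log2 fold changes of -0.42 ± 0.18 and 0.10 ± 0.26 that did not pass (edgeR adjusted p = 0.139 and 0.814).

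*AGO1*, the main microRNA effector and the most abundant gene of this list that did not pass, differed by -0.02 ± 0.09 on the log2 scale (edgeR adjusted p = 0.860). *AGO10*, which binds miR165 and miR166 and keeps them from *AGO1*, had 0.03 ± 0.10 (edgeR adjusted p = 0.875). *SHR* and *SCR*, which activate *MIR165* and *MIR166* genes in the root, had -0.08 ± 0.08 and 0.04 ± 0.13 (edgeR adjusted p = 0.525 and 0.834). Of the 9 *MIR165* and *MIR166* loci, 5 were listed at 0 in every library and no other exceeded 5 counts in total, so nothing can be said of their precursors from this table.

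Among 15 other organ polarity factors 12 were tested and 1 was called, as higher. It was *YAB2*, a YABBY transcription factor gene of the abaxial side, at 4.34, 3.81 and 4.57 CPM in the mutant libraries and 2.95, 2.57 and 2.42 CPM in wild type (log2 fold change 0.69 ± 0.15, edgeR adjusted p = 0.0152). Its call was lost without mutant replicate 1 or wild type replicate 2 (edgeR adjusted p = 0.0523 and 0.0654). The other tested YABBY genes went in both directions and did not pass. *YAB5* had -0.99 ± 0.47, *FIL* 0.31 ± 0.56 and *YAB3* 0.64 ± 0.70 (edgeR adjusted p = 0.160, 0.710 and 0.526). *FIL* gave 0.180, 0.511 and 1.08 CPM in mutant replicates 1, 2 and 3 and 0.417, 0.421 and 0.605 CPM in wild type. *YAB3* gave 0.299, 0.232 and 1.44 CPM against 0.327, 0.332 and 0.646 CPM. For both, mutant replicate 3 alone lay above every wild-type library. *ARF4*, an auxin response factor gene of abaxial identity and the most abundant of this list that did not pass, had 0.15 ± 0.08 (edgeR adjusted p = 0.203). Its relative *ARF3*, whose protein acts with KANADI proteins, had -0.03 ± 0.07 (edgeR adjusted p = 0.724). These 12 genes had a median of 0.12.

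A further list held 18 genes linked to either family, as targets, as partners or, like the gene of MONOPTEROS, upstream. Of these 13 were tested and 5 were called, all 5 as lower, where 13.7% of all genes tested were called lower. The median over the 13 was -0.33, and no set test was run. *TMO5* and its relative *T5L1*, which encode bHLH factors of vascular cell division, changed by -0.84 ± 0.15 and -0.87 ± 0.23 (edgeR adjusted p = 0.00961 and 0.0365). *TMO5* gave 7.06, 4.97 and 6.68 CPM in the mutant libraries and 10.5, 12.9 and 10.3 CPM in wild type, with no overlap. The auxin influx carrier genes *LAX3* and *LAX2* changed by -1.13 ± 0.20 and -0.51 ± 0.14 (edgeR adjusted p = 0.0103 and 0.0320). *LAX3* gave 10.6, 15.7 and 14.6 CPM against 35.3, 30.3 and 23.4 CPM. *TMO5* and *LAX3* passed in each of the 11 other settings, while *T5L1* and *LAX2* lost their calls in 5 and 4 of them. Leaving out wild type replicate 2 ended both calls (edgeR adjusted p = 0.121 and 0.114). They also ended without wild type replicate 1 (0.114 and 0.101), that of *T5L1* without mutant replicate 1 (0.0973), and that of *LAX2* without mutant replicate 2 or 3 (0.0788 and 0.0652).

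*ACL5*, a thermospermine synthase gene activated by *HB-8* and the most abundant of these genes that did not pass, had -0.25 ± 0.11 (edgeR adjusted p = 0.130). *MP*, the gene of MONOPTEROS, had -0.38 ± 0.14 and did not overlap between the groups, but did not pass (edgeR adjusted p = 0.0846). *LHW*, whose protein pairs with that of *TMO5*, is listed at 0 in every library. Over the 3 lists 8 of 33 tested genes were called, 24.2%, which is near the 24.9% of all genes tested. Without wild type replicate 2, 2 of these genes fell, and 1 rose without that library or without mutant replicate 1.

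Genes with the profile most like that of each member were sought among 15251 genes of at least 5 CPM that are no members. Likeness was the root mean square difference of log2(CPM + 0.5), centred on each gene's mean, over the 6 libraries, so that every profile shares the same libraries, their differing depths and the genotype contrast. By this selection a near gene has a fold change like that of its member, so its call is no separate evidence. Of the 3 nearest genes of each member, 27 in all, 12 carry a symbol in the annotation and are named here, and 15 are known by locus code alone. *PXY*, the receptor kinase gene of the cambium, was the second nearest to *REV* at 0.031 log2 units, and itself fell by 0.37 (edgeR adjusted p = 0.0450). *GUN5*, a magnesium chelatase subunit gene of chlorophyll synthesis, was the third nearest to *PHB* at 0.053. *ADR1* was near *PHV* at 0.036, *EDR2* and *TPS1* near *ATHB-15* at 0.020 and 0.022, and *ATG18H* near *HB-8* at 0.032 log2 units. For the KANADI genes, *DFL1*, an auxin-conjugating enzyme gene, was the nearest to *KAN3* at 0.071 and rose by 0.72 (edgeR adjusted p = 0.00469). *ZFP3* was near *KAN4* at 0.057, *PA200* and *ALA1* near *KAN1* at 0.061 and 0.065, and *ATIM* and *PNG1* near *KAN2* at 0.044 and 0.050 log2 units.

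Coding sequences of the HD-ZIP III genes ranged from 2502 bases in *HB-8* to 2559 in *PHB*, and those of the KANADI genes from 831 in *KAN4* to 1212 in *KAN1*. *PHB* and *PHV* were the most alike at 84.0% of aligned coding bases, followed by *ATHB-15* and *HB-8* at 72.7%, and the other HD-ZIP III pairs were between 64.4% and 67.7%. Within the families, the longest stretch that a pair shared exactly was 64 bases, in *PHB* and *PHV*, and at most 29 bases in the other pairs of the same family. In the KANADI family *KAN2* and *KAN3* were most alike, at 60.6%. The levels of *PHV* are uncertain to the extent that reads were shared with AT5G32670, a locus with a stretch of at least 95% identity over 200 bases that has no row in the count table. *REV* overlaps AT5G60700 on the opposite strand by 67 bases, and *KAN1* overlaps AT5G16550 by 25 and the non-coding locus AT5G02555, which has no row in the count table, by 435 bases, both on the opposite strand. Since the strand setting of the counting is not stated, reads of such overlaps cannot be told apart. In TAIR10.1 *REV* spans chr5:24396981-24402195, *PHB* chr2:14639323-14644355, *PHV* chr1:10796124-10801093, *ATHB-15* chr1:19409688-19414764 and *HB-8* chr4:15863339-15868650. *KAN1* spans chr5:5406863-5411766, *KAN2* chr1:11625616-11630745, *KAN3* chr4:9847933-9850927 and *KAN4* chr5:17073673-17075904.

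**Figure D4:**
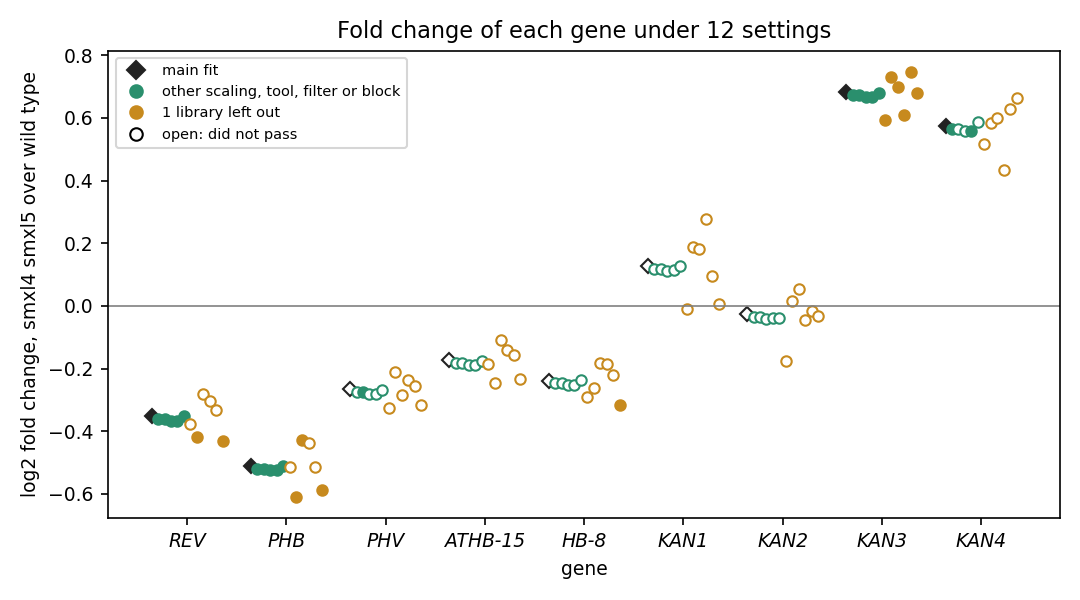
Log2 fold change of each member in the reported fit and in 11 other settings. Diamonds are the reported fit, green points another scaling, tool, filter or the replicate block, and ochre points fits with 1 library left out, and open symbols did not pass an adjusted p of 0.05. The points of all HD-ZIP III genes stay below 0 and those of *KAN3* and *KAN4* above it, *KAN3* alone is filled in every setting, and *KAN1* and *KAN2* lie on both sides of 0.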

How the data were processed

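RNA sequencing was done on 6 stem-base libraries, grouped by the genotype label of the stem, with replicate numbers from the titles. The descriptions call every wild-type sample replicate 1, but no library repeats another (chi-square per gene between replicates 10.3 to 30.3). The protocol calls the libraries biological replicates. The deposited values are raw read counts by locus code. FastQC 0.11.7, TopHat2 2.0.14 and DESeq2 were used on the TAIR10 build, per the submitters' processing notes. For the counting program and its strand setting, nothing is given in the sources used here. The authors' deposited comparison table holds p-values, a test score, log2 fold changes, their errors and a mean normalized signal. Its sign was opposite to mutant over wild type for all 5053 called genes.

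Counts (21364628 to 49929595 per library) were tested with edgeR 4.0.16 in R 4.3.3 (filterByExpr with minimum count 10 and total 15, TMM, robust quasi-likelihood F test, two-sided, prior count 0.125), with Benjamini-Hochberg adjustment over all 20296 genes and a threshold of 0.05. DESeq2 1.42.0 was an alternative. SE was obtained by dividing the absolute log2 fold change by the root of F. RPKM is CPM per kilobase of annotated exon. Exon models and sequences came from RefSeq TAIR10.1, searched on spliced transcripts. In simulated counts over 20168 genes, 19970 of them unchanged, the fit called 34 of 49 genes changed by 1 on the log2 scale. It called 6 of 49 changed by 0.5 and 0 of 50 changed by 0.3. With so few changed genes the adjustment was stricter there than in the data, where 24.9% of genes were called. These rates therefore do not give the power in the data. The members and gene lists were chosen with earlier results of these data known. Named genes are all members, the called genes and the most abundant uncalled gene of each related list, and the nearest profiles. *AGO10*, *SHR*, *SCR*, *ZPR2*, *ZPR3*, *FIL*, *YAB3*, *YAB5*, *ARF3*, *MP*, *LHW* and the single markers were named after their values were seen. Of the called related genes, 1 is counted but not reported here.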

Additional observations from a re-analysis of the deposited data

How the results depend on the processing

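Scaling by DESeq2 size factors and a minimum of 10 counts in every library kept every member's direction and call. DESeq2's Wald test called *PHV* (log2 fold change -0.28) and not *KAN4* (0.56), leaving 1 KANADI gene higher. Without a filter *KAN4* was at 0.56 and 1 KANADI gene was higher. With the replicate number as a block, 3356 genes were called and 1355 were higher, *KAN4* was at 0.59 without a call, 1 KANADI gene was higher, and no other member's call changed. The numbers did not pair the libraries: deviations of same-numbered libraries correlated over genes at 0.04, 0.07 and -0.03, and not every library correlated best with its own number.

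With 1 library left out, which also lowers power, 1902 to 5558 genes were called, 1305 to 3135 lower and 597 to 2423 higher. From 0 to 3 HD-ZIP III genes were lower, 1 KANADI gene was higher, 2 to 6 related genes were lower and 1 to 2 were higher. HD-ZIP III genes were called by no tool as higher, nor KANADI genes as lower, in any setting. Leave-one-out log2 fold changes were -0.43 to -0.28 for *REV*, -0.61 to -0.43 for *PHB*, -0.32 to -0.18 for *HB-8* and 0.43 to 0.66 for *KAN4*. *KAN1* ran from -0.00995, without mutant replicate 1, to 0.28. *KAN2* ran from -0.176 to 0.0523, and was above 0 without mutant replicate 2 (0.0165) or 3 (0.0523). Among the members *KAN4* had the fewest reads, 688 in all.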
